A study of Mus musculus with 6 samples.

Results

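Conjugation enzymes make foreign compounds and the body's own lipophilic molecules more soluble by joining them to glutathione, glucuronic acid or sulfate. The genes described here were all array features with a single platform symbol beginning with Gsta, Gstk, Gstm, Gsto, Gstp, Gstt, Gstz, Ugt1, Ugt2, Ugt3 or Sult, pseudogene symbols ending in -ps left out. They numbered 49 of the 22180 named genes on the array: 18 glutathione S-transferases (GST), 10 UDP-glucuronosyltransferases and relatives (UGT) and 21 sulfotransferases (SULT), each with 1 probe set, chosen by name and not by their values. Livers came from 3 male mice lacking the orphan receptor gene Gpr146 in the whole body (KO) and from 3 male wild-type (WT) littermates. All were chow-fed, 24 weeks old and of C57BL/6J background, and were sampled after 6 hours of refeeding that followed a 16-hour fast. Each mouse was measured on 1 whole-transcript array. Because the knockout was in the whole body, the liver values do not separate loss of the receptor in hepatocytes from its loss in other tissues.

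GST enzymes catalyse the attack of glutathione on electrophiles and fall into classes (alpha, kappa, mu, omega, pi, theta, zeta). UGT enzymes sit in the endoplasmic reticulum and use UDP-sugars, and SULT enzymes are cytosolic and take sulfate from the cofactor PAPS. In rodent liver many of these genes respond to the xenobiotic receptors CAR, PXR and AHR and to the oxidative stress factor NRF2, and several are expressed at different levels in males and females under the control of growth hormone.

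Gpr146 itself measured 4.61, 4.28 and 3.87 log2 units in KO mice 1 to 3, against 5.96, 5.56 and 5.65 in WT mice 1 to 3, a difference of -1.47 ± 0.19 (SE; limma adjusted p = 0.0702). No KO value reached the lowest WT value. The 10 hepatocyte markers all passed the signal filter, with mean levels of 10.98 to 11.04 in KO livers and 10.98 to 11.01 in WT livers, with Alb differing by -0.01. Array medians lay between 2.67 and 2.73 log2 units. In whole tissue, fewer cells of a type and less RNA per cell cannot be told apart. The labels give each sample as an individual mouse, so each array is 1 replicate.

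Some of the best known conjugating genes could not be read singly. All 8 Ugt1 symbols, among them the bilirubin-conjugating Ugt1a1, stood only on 2 probe sets that list several genes, which left 0 Ugt1 members. Those 2 probe sets differed by -0.06 and -0.15 log2 units between KO and WT livers, and neither was tested or assigned to a gene. In all, 9 probe sets that list several symbols, covering 14 symbols of these families with no probe set of their own, were left out. Those that list Gsta1 and Gsta2 differed by -0.40, -0.10 and -0.16, the last at a mean signal of only 1.85. The one that lists Gstz1, at a mean of 10.2, differed by -0.05, and the one that lists Gstm5 by 0.18. None of these was tested, and the zeta class was left without a member.

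The promoter letters of 6 members are shown, from RefSeq on GRCm38.p6, spanning 250 bases before to 50 after the start site and written 5′ to 3′ on the gene's strand. RefSeq promoters were found for 42 of the 49 members, in 52 windows. Gstp1 and Gstp2 are neighbours on chromosome 19 and had the same order of signal among KO mice, so they are shown side by side. Capitals mark the 9 letters TGAGTCAGC, which match the NF-E2-type motif TGANTCAGC.

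Gstp1, chr19:4037863-4038162, minus strand: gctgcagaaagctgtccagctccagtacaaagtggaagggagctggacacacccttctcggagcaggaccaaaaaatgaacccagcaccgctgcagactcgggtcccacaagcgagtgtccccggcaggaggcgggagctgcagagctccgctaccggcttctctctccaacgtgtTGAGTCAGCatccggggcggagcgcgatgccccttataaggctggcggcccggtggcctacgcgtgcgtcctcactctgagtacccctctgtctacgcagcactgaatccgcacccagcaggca

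Gstp2, chr19:4042172-4042471, minus strand: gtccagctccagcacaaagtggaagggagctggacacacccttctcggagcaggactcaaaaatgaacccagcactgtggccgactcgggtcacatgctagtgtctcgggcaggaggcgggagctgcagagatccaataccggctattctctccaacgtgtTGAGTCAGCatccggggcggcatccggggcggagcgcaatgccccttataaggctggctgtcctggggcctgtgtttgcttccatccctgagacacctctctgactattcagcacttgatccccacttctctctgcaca

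The match began at position -74 from the start site in Gstp1 and at -89 in Gstp2, the 2 windows being 76.4% identical over their alignment. TGANTCAGC, on either strand, was held by 2 of the 52 member windows (3.85%) and by 1.19% of all 32851 windows. Gsta3 and Gstm7 are shown as the members with the antioxidant response core TGACNNNGC, the letters bound by NRF2 and its partners, in capitals. With C at its N, the NF-E2-type motif is also a match to that core.

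Gsta3, chr1:21240335-21240634, plus strand: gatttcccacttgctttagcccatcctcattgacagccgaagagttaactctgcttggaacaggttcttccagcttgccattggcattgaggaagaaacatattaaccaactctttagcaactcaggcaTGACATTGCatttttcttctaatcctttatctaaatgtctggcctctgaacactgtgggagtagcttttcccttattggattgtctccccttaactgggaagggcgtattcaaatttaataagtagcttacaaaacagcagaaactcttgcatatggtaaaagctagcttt

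Gstm7, chr3:107931565-107931864, minus strand: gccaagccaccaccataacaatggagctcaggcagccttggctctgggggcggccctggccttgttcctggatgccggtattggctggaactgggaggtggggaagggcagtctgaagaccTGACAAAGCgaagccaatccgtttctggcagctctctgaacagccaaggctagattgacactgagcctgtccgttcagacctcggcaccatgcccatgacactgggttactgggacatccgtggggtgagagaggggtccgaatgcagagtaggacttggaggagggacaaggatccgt

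That core was held by 2 of the 52 member windows (3.85%) and by 12.4% of all windows. Gstm2 and Gstm3, neighbours in the mu class cluster on chromosome 3, are shown because their signals spread most widely between mice among the mu class genes, and neither motif was found in these windows, so no letters are in capitals.

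Gstm2, chr3:107986371-107986670, minus strand: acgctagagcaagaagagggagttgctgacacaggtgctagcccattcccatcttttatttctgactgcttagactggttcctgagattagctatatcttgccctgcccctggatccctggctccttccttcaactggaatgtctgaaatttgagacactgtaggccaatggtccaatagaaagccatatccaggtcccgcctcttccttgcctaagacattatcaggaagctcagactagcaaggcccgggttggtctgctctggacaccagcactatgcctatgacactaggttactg

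Gstm3, chr3:107969125-107969424, minus strand: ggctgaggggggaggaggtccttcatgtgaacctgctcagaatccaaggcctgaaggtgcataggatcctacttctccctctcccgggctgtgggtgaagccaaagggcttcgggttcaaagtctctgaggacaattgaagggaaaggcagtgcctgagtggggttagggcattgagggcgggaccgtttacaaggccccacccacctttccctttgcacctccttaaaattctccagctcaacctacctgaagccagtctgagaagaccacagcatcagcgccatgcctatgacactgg

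Among other motifs searched on both strands, the AHR core GCGTG was in 15.4% of member windows and 32.4% of all windows. The STAT-type letters TTCNNNGAA were in 3.85% of member windows and 8.30% of all windows. The letters GTTAAT, part of the motif of the liver factor HNF1, were in 19.2% of member windows, from 10 genes, and in 7.10% of all windows. Gsta3, Sult1a1, Sult1d1, Ugt2a3 and Ugt3a1 of these genes passed the signal filter. The others, Sult2a3, Sult2a4, Sult2a5, Sult2a6 and Sult3a2, lay under it. These matches describe letters and are not binding sites.

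Of the 49 genes, 30 lay in the upper 50% of mean signal and were tested within a fit of 11090 genes. They were 16 GST, 8 UGT and 6 SULT genes. Of the 30, 0 passed limma's adjusted p of 0.05, at which 0.0361% of all genes tested were called, 0.0271% as higher and 0.00902% as lower in KO livers. Their adjusted p-values ran from 0.358 to 0.996. At an unadjusted p under 0.05 there were 5 members, 4 lower and 1 higher in KO livers. That is 13.3% of the members lower and 3.33% higher, beside 2.98% lower and 6.16% higher among all genes tested. Leaving out KO mouse 3 gave 1 such member, leaving out WT mouse 2 gave 2, and leaving out KO mouse 2 gave 3. With KO mouse 1 left out there were 5 lower and 2 higher. With WT mouse 1 left out there were 6 lower and 1 higher, and with WT mouse 3 left out 5 lower and 0 higher. KO and WT values did not overlap in 7 members. KO lay below WT in Gstm4, Gsto1, Gstt1, Sult1b1, Ugt2b35 and Ugt2b36 (6 of 30, 20.0%) and above WT in Gsta4 (1 of 30, 3.33%). Among all genes tested, 5.16% lay below and 9.63% above.

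The median KO minus WT difference of the 18 GST genes, tested or not, was -0.10 log2 units, that of the 10 UGT genes -0.09 and that of the 21 SULT genes -0.02, beside 0.0044 over all genes. Over tested genes alone the medians were -0.10 for GST, -0.09 for UGT and -0.11 for the 6 tested SULT genes, beside 0.03 over all genes tested. Among tested members 21 of 30 differences were negative, as were 42.3% of those of all genes tested. By family these were 12 of 16 GST, 6 of 8 UGT and 3 of 6 SULT genes. These medians moved with single mice: leaving out WT mouse 2 put the GST median at -0.06 and leaving out WT mouse 3 put it at -0.15. The UGT median was 0.0067 with KO mouse 1 left out and -0.17 with KO mouse 3 left out. The SULT median was -0.08 with KO mouse 1 left out. The 95% intervals give a range for the array signal difference of each gene by itself, without adjustment over genes. For 22 of the 30 members the 95% interval of the difference lay inside a change of 1.5-fold in either direction, and for 27 inside a change of 2-fold. Among all 11090 genes tested, 9763 lay inside 1.5-fold and 10864 inside 2-fold, both a larger share than that of the members. The 3 whose interval reached past 2-fold were Gstm2, Gstm3 and Gstp2.

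**Figure D1:**
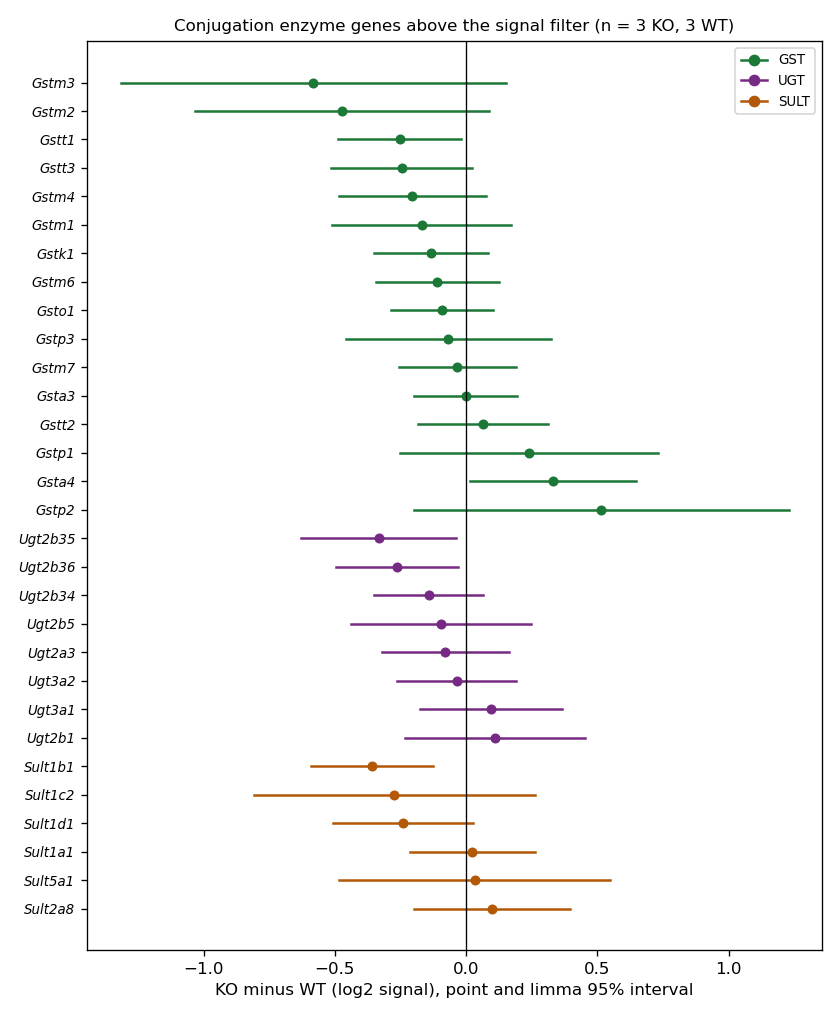
KO minus WT difference of each of the 30 tested conjugation enzyme genes in log2 signal, with limma's 95% interval (3 KO and 3 WT mice), grouped by family. Gstm3 lies lowest at -0.58 and Gstp2 highest at 0.51, both with intervals across 0. Of the 30 intervals 22 stay within 1.5-fold, beside 9763 of 11090 over all genes tested.

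In the alpha class, Gsta3, which detoxifies aflatoxin epoxide in mouse liver, measured 9.85, 9.79 and 9.75 in KO mice 1 to 3, against 9.80, 9.79 and 9.81 in WT mice 1 to 3. The groups overlapped within 0.11 log2 units over all 6 mice, the narrowest range of the tested members, and the difference was -0.0014 with a 95% interval of -0.20 to 0.19. Gsta4, which conjugates the lipid peroxidation product 4-hydroxynonenal, measured 7.90, 7.86 and 7.93 in KO mice, against 7.73, 7.72 and 7.24 in WT mice. Every KO mouse lay above every WT mouse, and WT mouse 3 lay apart below the other WT mice. The difference was 0.33 ± 0.14 (SE; limma p = 0.0428, adjusted p = 0.528, exact permutation p = 0.1, the smallest that 3 against 3 allows). With WT mouse 3 left out it was 0.17. Gsta4 kept an unadjusted limma p under 0.05 in 11 of 15 alternatives, and lost it without KO mouse 1, 2 or 3 or WT mouse 3. Gstk1, the kappa class enzyme of mitochondria and peroxisomes, measured 8.99, 8.89 and 9.12 in KO mice, against 9.14, 9.15 and 9.10 in WT mice, with overlap through KO mouse 3 (adjusted p = 0.691).

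The 6 mu class genes with a probe set of their own, all on chromosome 3, had negative differences, from -0.03 for Gstm7 to -0.58 for Gstm3. Of these, 0 of 6 had an unadjusted p under 0.05. The probe set that lists Gstm5 with another gene differed the other way, by 0.18, and was not tested. Gstm3 measured 5.26, 4.72 and 4.49 in KO mice 1 to 3, against 4.96, 6.19 and 5.06 in WT mice 1 to 3. WT mouse 2 was the highest and KO mouse 3 the lowest, a range of 1.70 log2 units that was the widest of the 30, and the groups overlapped through KO mouse 1. The difference was -0.58 ± 0.32 (SE; adjusted p = 0.623). It was -0.19 with WT mouse 2 left out and -0.80 with either KO mouse 1 or WT mouse 1 left out. Gstm2 measured 5.85, 5.05 and 5.16 in KO mice, against 5.41, 6.20 and 5.87 in WT mice. Here too KO mouse 1 stood with the WT mice and WT mouse 2 was highest, and the difference of -0.47 ± 0.25 (adjusted p = 0.607) was -0.28 without WT mouse 2. It was -0.72 with KO mouse 1 left out and -0.68 with WT mouse 1 left out (limma adjusted p = 0.460 and 0.595). Gstm4 measured 4.78, 4.44 and 4.89 in KO mice, against 4.92, 4.90 and 4.91 in WT mice. Its groups did not overlap, by a margin of hundredths of a log2 unit, and the difference was -0.20 ± 0.12 (adjusted p = 0.646). Gstm1 measured 6.21, 6.14 and 5.75 in KO mice, against 6.14, 6.43 and 6.05 in WT mice, and the groups overlapped (adjusted p = 0.774). Its difference of -0.17 was -0.03 with KO mouse 3 left out and -0.26 with KO mouse 1 left out. Gstm6 and Gstm7 differed by -0.11 and -0.03. Mu class genes are close in sequence, and whether these probe sets read 1 gene each was not tested.

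Among the 30 tested members, the pi class gave the highest positive difference and the widest spread among KO mice. Gstp2 measured 7.46, 8.12 and 8.92 in KO mice 1 to 3, against 7.49, 7.91 and 7.55 in WT mice 1 to 3. KO mouse 3 was the highest and KO mouse 1 the lowest of all 6, so the KO values enclosed the WT values. The difference was 0.51 ± 0.31 (SE; adjusted p = 0.650). It was 0.14 with KO mouse 3 left out and 0.87 with KO mouse 1 left out. Gstp1, the abundant pi class enzyme of male mouse liver, measured 9.63, 10.26 and 10.61 in KO mice, against 9.93, 10.02 and 9.84 in WT mice. The order of the KO mice was the same as for Gstp2, and the difference of 0.24 ± 0.22 (adjusted p = 0.778) was 0.02 with KO mouse 3 left out and 0.51 with KO mouse 1 left out. Gstp1 and Gstp2 are near-identical copies, and a further probe set that lists both was at 9.21, 9.82 and 10.42 in KO mice, against 9.47, 9.64 and 9.36 in WT mice, and whether the single-symbol probe sets separate the pair was not tested. Gstp3, next to them, had its highest value in WT mouse 2 and differed by -0.07 ± 0.17.

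In the theta class, which acts on small halogenated compounds, Gstt1 measured 8.33, 8.22 and 8.18 in KO mice 1 to 3, against 8.49, 8.63 and 8.38 in WT mice 1 to 3. All KO mice lay below all WT mice. The difference was -0.25 ± 0.10 (SE; limma p = 0.0363, adjusted p = 0.509, exact permutation p = 0.1), a signal 1.19-fold higher in WT livers. Gstt1 kept an unadjusted limma p under 0.05 in 10 of 15 alternatives, with differences from -0.31 to -0.19. Its chromosomal neighbour Gstt3 differed by -0.24 ± 0.12 (adjusted p = 0.579) and Gstt2 by 0.06 ± 0.11 (adjusted p = 0.899). Gsto1, an omega class enzyme that reduces dehydroascorbate, measured 7.44, 7.46 and 7.46 in KO mice, against 7.54, 7.51 and 7.59 in WT mice. The groups did not overlap, but the difference of -0.09 ± 0.08 was close to its error (adjusted p = 0.783).

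**Figure D2:**
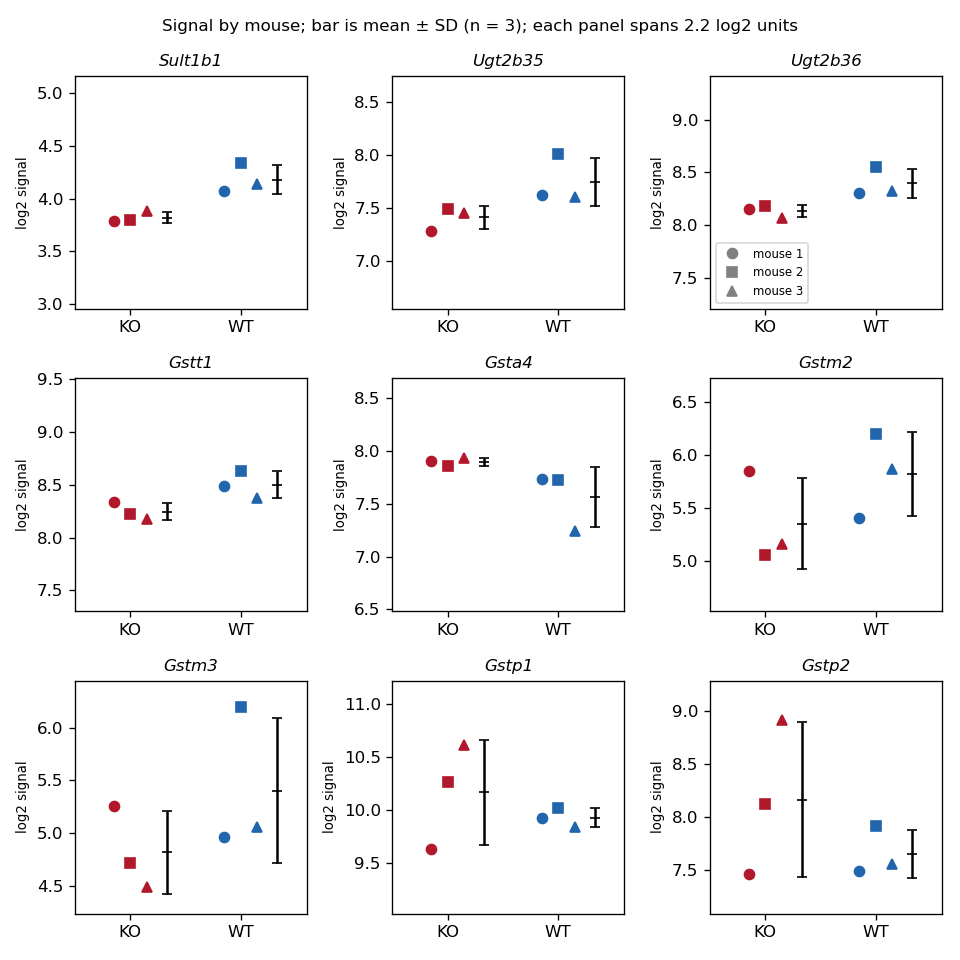
Log2 signal (vertical axis) of 9 genes by mouse, KO left and WT right, with marker shape giving the mouse number and the bar the mean ± SD (n = 3). KO and WT do not overlap in Sult1b1, Ugt2b35, Ugt2b36, Gstt1 and Gsta4, whereas Gstm3 spans 4.49 to 6.19 and Gstp2 7.46 to 8.92 over the 6 mice with overlap.

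Among UGT genes, the 8 UGT2 genes lie in 1 stretch of chromosome 5, and their products conjugate steroids, bile acids and drugs. Ugt2b35 measured 7.28, 7.49 and 7.45 in KO mice 1 to 3, against 7.62, 8.01 and 7.60 in WT mice 1 to 3. KO lay below WT in every mouse, with WT mouse 2 well above the rest. The difference was -0.33 ± 0.13 (SE; limma p = 0.0316, adjusted p = 0.500, exact permutation p = 0.1), and -0.20 without WT mouse 2. Ugt2b36 measured 8.15, 8.18 and 8.07 in KO mice, against 8.31, 8.56 and 8.32 in WT mice. It showed the same separation, at -0.26 ± 0.10 (limma p = 0.0304, adjusted p = 0.491, exact permutation p = 0.1), with WT mouse 2 again highest. Ugt2b35 and Ugt2b36 each kept an unadjusted limma p under 0.05 in 12 of 15 alternatives. Both lost it without KO mouse 1, KO mouse 3 or WT mouse 2. The other 4 tested UGT2 genes did not separate. Ugt2b34 averaged 9.21 ± 0.06 in KO livers and 9.35 ± 0.08 in WT livers (SD, n = 3 each; adjusted p = 0.668), Ugt2b5 8.85 ± 0.28 in KO livers and 8.94 ± 0.15 in WT livers, and Ugt2a3 7.96 ± 0.16 in KO livers and 8.04 ± 0.06 in WT livers. Ugt2b1 measured 8.63, 8.86 and 9.23 in KO mice, against 8.81, 8.68 and 8.90 in WT mice, the KO mice in the same order as for Gstp1 and Gstp2. Its difference was 0.11 ± 0.15, and -0.05 without KO mouse 3.

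Ugt2b37 and Ugt2b38 were under the signal filter and were not tested. Ugt2b38 was at 1.85 and 1.99 in KO mice 1 and 2 and 3.57 in KO mouse 3, against 2.08, 1.87 and 2.37 in WT mice 1 to 3. Its only value above the filter was thus that of 1 KO mouse. The UGT3 enzymes use other sugars in humans, UGT3A1 N-acetylglucosamine and UGT3A2 glucose and xylose. Ugt3a1 averaged 7.91 ± 0.19 in KO livers and 7.81 ± 0.11 in WT livers, and Ugt3a2 9.36 ± 0.13 in KO livers and 9.40 ± 0.06 in WT livers (SD, n = 3 each). Both overlapped, with 95% intervals of -0.18 to 0.37 and -0.26 to 0.19.

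Sult1b1, a sulfotransferase for phenols and thyroid hormones, had the smallest p of all members. It measured 3.78, 3.79 and 3.88 in KO mice 1 to 3, against 4.07, 4.33 and 4.14 in WT mice 1 to 3. All KO mice lay below all WT mice and WT mouse 2 was highest. The difference was -0.36 ± 0.10 (SE; limma p = 0.00683, adjusted p = 0.358, exact permutation p = 0.1), a signal 1.28-fold higher in WT livers. Each of the 14 alternatives that kept this gene gave an unadjusted p under 0.05, and adjusted p ran from 0.319 to 0.588. Its signal lay not far above the filter of 2.99, and with a pseudocount of 10 on the linear signal it was at -0.22. Sult1d1, a catecholamine sulfotransferase in mice that stands next to Sult1b1 on chromosome 5, measured 7.64, 7.49 and 7.73 in KO mice, against 7.67, 7.92 and 7.99 in WT mice. Those groups overlapped, and the difference was -0.24 ± 0.12 (adjusted p = 0.583).

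The phenol sulfotransferase Sult1a1 averaged 9.21 ± 0.15 in KO livers and 9.19 ± 0.07 in WT livers (SD, n = 3 each), with a 95% interval of -0.22 to 0.26. Sult2a8, a bile acid sulfotransferase of mouse liver, measured 8.97, 9.20 and 9.23 in KO mice, against 9.10, 8.80 and 9.21 in WT mice. WT mouse 2 was lowest here, and the difference of 0.10 ± 0.13 was -0.02 without that mouse. Sult1c2 and Sult5a1 varied within groups more than between them. Sult1c2 was at 3.59, 3.24 and 3.19 in KO mice, against 3.69, 4.09 and 3.07 in WT mice. Its difference of -0.27 was -0.04 with WT mouse 2 left out and -0.55 with WT mouse 3 left out. Sult5a1 was at 3.80, 4.60 and 4.14 in KO mice, against 3.99, 3.90 and 4.55 in WT mice.

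The remaining 15 SULT genes had mean signals of 1.29 to 2.63, under the filter, with differences between -0.19 and 0.17. They included Sult1e1, the estrogen sulfotransferase, at 1.97 ± 0.10 in KO livers and 2.04 ± 0.11 in WT livers (SD, n = 3 each). They also held Sult2a1 to Sult2a7 and Sult3a1, several of which are female-predominant in mouse liver, together with the cholesterol sulfotransferase Sult2b1 and the brain form Sult4a1. Sult3a1 was at 1.48 ± 0.08 in KO livers and 1.36 ± 0.08 in WT livers. In the GST family, Gsto2 and Gstt4 were also under the filter, at means of 2.26 and 2.01.

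**Figure D3:**
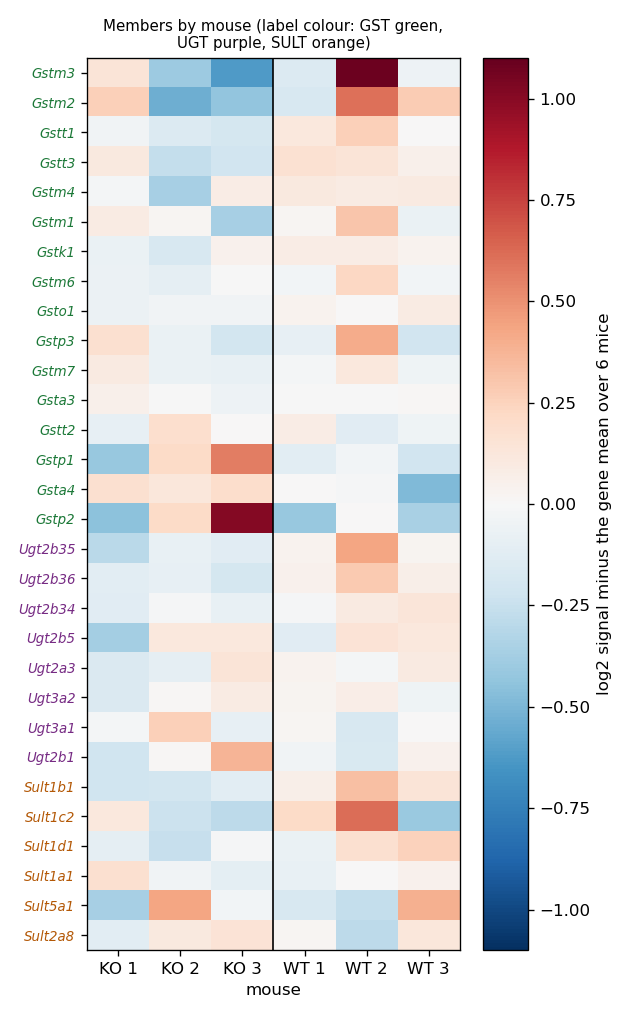
Log2 signal of each of the 30 tested genes (rows) in each mouse (columns, KO left and WT right), minus the mean of that gene over the 6 mice. WT mouse 2 holds the highest value in 13 rows, and KO mouse 1 the lowest in 11.

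Position along the genome gave a further grouping, taken from gene order in GRCm38.p6 with no coordinates of the array's own build. On chromosome 5, 11 members lie in order from Ugt2b34 to Sult1e1, 8 of them tested. Of these 8, 7 had negative differences, beside 42.3% of all genes tested, with a median of -0.19. The same 8 hold 3 of the 4 members that were lower at an unadjusted p under 0.05, beside 2.98% of all genes tested. On chromosome 3, all 6 mu class members were tested and negative, with a median of -0.19. On chromosome 7, which carries Sult1a1 and the Sult2a genes, the 2 tested of 10 members had a median of 0.06. Chromosome 10 had 2 of 3 tested members negative, with a median of -0.24, and chromosome 19 had 2 of 4, with a median of 0.09. Neighbouring members were read in the same 6 mice and are not replicates.

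Member values also varied between the mice within a group, and the counts of members per mouse are given without a test. WT mouse 2 had the highest value of the 6 mice in 13 of 30 members (43.3%), against 20.3% of all genes tested. KO mouse 1 had the lowest in 11 of 30 (36.7%), against 17.7% of all genes tested, and WT mouse 1 in 0 of 30, against 27.6%. Female-biased liver genes, a list of 6 tested, had means of 0.38, -0.61 and -0.69 log2 units from each gene's average in KO mice 1 to 3. In WT mice 1 to 3 the means were 0.27, 1.18 and -0.53, with Cyp2b9 the largest part of the 1.18. The other 6 female-biased genes on the array were under the filter and are not in these means. Those 6 were not ordered alike, and in WT mouse 2 Cyp3a44 was highest (2.72) and Cyp3a16 lowest (1.56). Male-biased genes, 14 tested, had means of -0.38, 0.35 and 0.82 in KO mice, against -0.02, -1.07 and 0.30 in WT mice. WT mouse 2 was thus the highest in the female-biased and the lowest in the male-biased list, KO mouse 3 the reverse, and KO mouse 1 stood nearer WT mouse 2 than the other KO mice did.

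At an unadjusted p under 0.05 each list held 1 gene, the female-biased Acot3 at -1.13 ± 0.39 and the male-biased Elovl3 at 0.70 ± 0.26 (SE), both with overlap. Among all genes tested, 2.98% were lower and 6.16% higher at that p. Values of the widest single genes of those lists follow. These genes were chosen after their values were seen and are part of the list means, so they are not a separate result. The steroid dehydrogenase Hsd3b5 was at 3.24, 7.35 and 7.74 in KO mice 1 to 3, against 5.52, 1.51 and 6.69 in WT mice 1 to 3. Cyp2b9, a female-predominant P450, was at 8.43, 5.13 and 5.41 in KO mice, against 7.38, 10.32 and 4.61 in WT mice. Gstm3 had its highest values in WT mouse 2 and KO mouse 1, where Cyp2b9 was also highest, and its lowest in KO mice 2 and 3. The orders differed in WT mouse 3, where Cyp2b9 was lowest at 4.61. There Gstm3 was at 5.06, its highest value after those of WT mouse 2 and KO mouse 1. Gstp1, Gstp2 and Ugt2b1 were ordered among KO mice as the male-biased list was. Among WT mice, Gstp1 and Gstp2 were instead highest in WT mouse 2 (10.02 and 7.91), where the male-biased list was lowest. All mice were labelled male. The part of this variation in the GST, UGT and SULT differences was not tested.

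**Figure D4:**
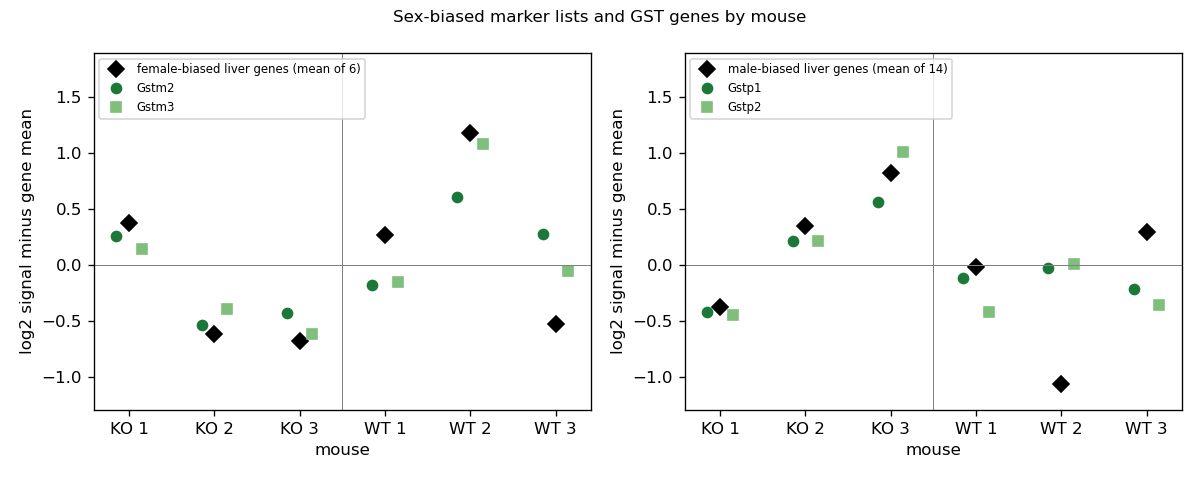
Mean of the tested female-biased genes with Gstm2 and Gstm3 (left) and of the tested male-biased genes with Gstp1 and Gstp2 (right) in each mouse. Values are log2 signal minus the gene mean over 6 mice, KO mice left of WT mice. WT mouse 2 stands at 1.18 in the female-biased and -1.07 in the male-biased list, and KO mouse 3 at -0.69 and 0.82. Gstp1 and Gstp2 are highest among WT mice in WT mouse 2, unlike the male-biased list.

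Partner genes that supply cofactors, export conjugates or sense xenobiotics were read from the same fit. Over 7 such lists 0 of 51 tested genes were called, the smallest adjusted p was 0.358 and the median difference was 0.03. At an unadjusted p under 0.05, 5 were higher and 2 lower, 13.7% in all, beside 9.13% of all genes tested. Among 9 genes of glutathione supply and recycling 0 reached that p, with a median of 0.05. There Gclm, the modifier subunit of the enzyme that limits glutathione synthesis, differed by 0.15 and Chac2, which degrades glutathione, by 0.16.

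A list of 6 genes covered glucuronic acid supply and hydrolysis. Ugp2, which makes UDP-glucose, measured 8.25, 8.14 and 8.14 in KO mice, against 8.27, 8.56 and 8.47 in WT mice. KO lay below WT in every mouse by a narrow margin, at -0.26 ± 0.10 (SE; limma adjusted p = 0.510). Ugdh, which oxidises UDP-glucose to UDP-glucuronic acid, and Slc35d1, which carries that product into the endoplasmic reticulum, differed by -0.26 ± 0.14 and -0.21 ± 0.11. The transporter genes Slc35b1 and Slc35d2, also of this list, differed the other way, by 0.22 ± 0.10 and 0.12 ± 0.12. Gusb, which hydrolyses glucuronides, differed by -0.04 ± 0.13. These 5 genes were named after their values were seen, and the median of the 6 was -0.13. Of 6 genes of PAPS and sulfate supply, Papss2 encodes the main PAPS synthase of liver. Papss2 measured 8.46, 8.25 and 8.35 in KO mice, against 8.63, 8.63 and 8.55 in WT mice. Its groups did not overlap, at -0.25 ± 0.09 (adjusted p = 0.483). The other PAPS synthase gene, Papss1, differed the other way by 0.38 ± 0.19 with overlap (adjusted p = 0.593). The PAPS transporter genes of the Golgi, Slc35b2 and Slc35b3, differed by -0.17 ± 0.09 and 0.22 ± 0.17. These last 3 genes were named after their values were seen, and the median of the 6 was 0.02.

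Of 10 other conjugating enzymes, 3 were higher at an unadjusted p under 0.05, beside 6.16% of all genes tested. Inmt, an amine methyltransferase, was at 9.50, 9.44 and 9.56 in KO mice, against 9.15, 9.14 and 9.25 in WT mice, a difference of 0.32 ± 0.09 (SE; adjusted p = 0.358) without overlap. Nat8, which acetylates cysteine conjugates on the route from glutathione conjugates to mercapturates, differed by 0.46 ± 0.15 and the arylamine acetyltransferase Nat2 by 0.25 ± 0.09. The 4 tested microsomal GST relatives overlapped between groups, with Mgst3 at -0.21 ± 0.23 and Ltc4s at -0.07 ± 0.10. Mgst2, under the filter and not tested, was at 2.02, 2.11 and 2.12 in KO mice, against 2.22, 2.22 and 2.34 in WT mice, without overlap. Of 7 export pumps, Abcb11, which secretes bile salts, differed by 0.45 ± 0.14 (adjusted p = 0.389), and the median was -0.06.

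Among 9 tested xenobiotic sensors and partners, Nr1i2, which encodes PXR, measured 7.44, 7.63 and 7.71 in KO mice, against 7.30, 7.39 and 7.12 in WT mice. It lay higher in every KO mouse, at 0.32 ± 0.11 (SE; adjusted p = 0.442). Marker targets of these sensors had differences of both signs. The 8 tested CAR and PXR targets had a median of 0.01, with Aldh1a1 at -0.27 ± 0.09, and the 3 AHR targets a median of -0.06, with Cyp1a2 at 0.29 ± 0.11. The 11 NRF2 targets had a median of -0.12, with Hmox1 at -0.38 ± 0.13 and Srxn1 at -0.36 ± 0.14, with adjusted p of 0.437 for Hmox1 and 0.503 for Srxn1. The NRF2 list stood at 0.27 from its average in WT mouse 2, while the remaining mice ran from -0.10 to -0.02.

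**Figure D5:**
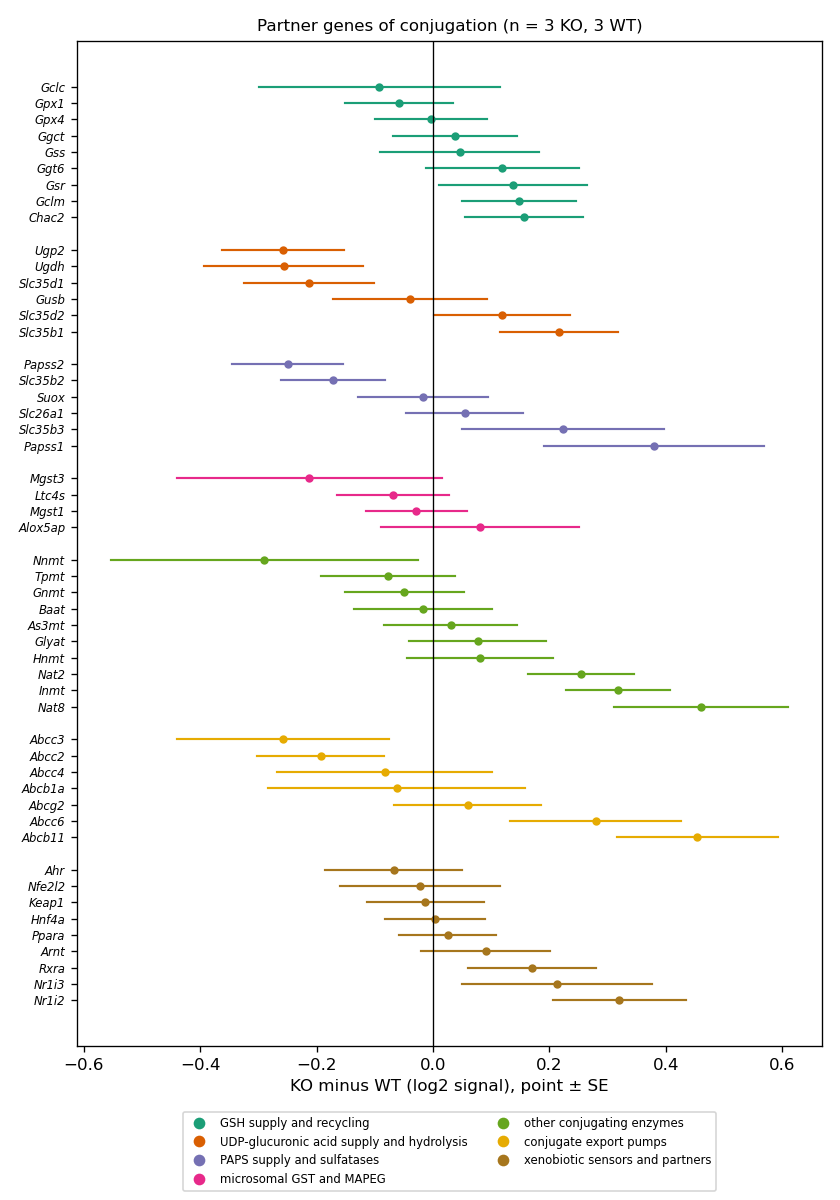
KO minus WT difference (log2 signal, point ± SE, 3 KO and 3 WT mice) of 51 partner genes in 7 lists. Nat8 at 0.46 and Abcb11 at 0.45 lie farthest to the right, and no gene passed the adjusted threshold.

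Zonation, cholesterol synthesis and cell type lists give the setting of these values, and were chosen with earlier results of these data known. Of 14 pericentral hepatocyte genes, from the zone where many conjugating enzymes are richest, 1 was called, Rhbg, an ammonium transporter, which fell by 1.12 ± 0.12 (SE; adjusted p = 0.0315). With KO mouse 1, 2 or 3 or WT mouse 1 or 2 left out, 0 partner genes were called. Oat, Slc1a2 and Glul differed by -0.60, -0.34 and -0.26, and Cyp1a2, also of this list, by 0.29 without overlap. At an unadjusted p under 0.05 there were 4 lower and 1 higher of the 14, and the median was -0.10. Among all genes tested, 2.98% were lower and 6.16% higher at that p. Of 9 periportal genes 0 had an unadjusted p under 0.05, with Cyp2f2 at 0.22 and Cps1 at -0.08. Cholesterol synthesis genes, the SREBP2 targets, had the largest median difference of the 15 partner lists, at -0.60, with 0 called. At an unadjusted p under 0.05, 12 of 14 were lower, beside 2.98% of all genes tested. The list mean stood at -0.15, -0.06 and -0.73 from its average in KO mice 1 to 3, against 0.28, 0.27 and 0.38 in WT mice 1 to 3, so KO mouse 3 stood apart below KO mice 1 and 2, and the groups did not overlap on this mean. Hsd17b7 and Msmo1 of that pathway differed by -0.96 and -0.83, and Pmvk and Lss by -0.73 and -0.66. Bile duct markers, from cells that can also hold pi class GST, were at mean levels of 3.28 to 3.32 in KO livers and 3.16 to 3.35 in WT livers, with 2 of 5 above the filter. Those 2 had a median difference of 0.28. Sox9 was at 6.19, 6.12 and 5.85 in KO mice, against 5.38, 5.80 and 5.74 in WT mice, higher in every KO mouse at 0.41 ± 0.14 (SE; limma adjusted p = 0.437). Krt7 differed by 0.15 ± 0.14 with overlap, and Krt19, Epcam and Cftr, under the filter, by -0.05, -0.09 and -0.13. Kupffer cell markers were at 5.23 to 5.79 in KO livers and 5.10 to 5.81 in WT livers, and the part of either cell type in the member values was not tested.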

How the data were processed

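Liver RNA of 6 mice (3 KO, 3 WT) was measured on 1 Affymetrix whole-transcript array each, from 100 ng of total RNA per the labels' protocols. The authors deposited 1 table of log2 values for 41345 probe sets. The base was judged from the values, since array maxima of 12.1 to 12.2 lie past 11.1, which a 16-bit scanner can reach in natural logs. The probe summary, the normalization and the array's build were not given in the sources used here. Columns were matched to mice by name, with 0 left over.

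Probe sets with 1 platform symbol (23521) were kept, named through Entrez numbers in GRCm38.p6 (23328 matched), and those with several (1814) or none (16010) left out. The highest-mean probe set per gene gave 22180 genes, and the upper 50% by mean over all 6 arrays (log2 of at least 2.99) were tested. KO minus WT was fitted with limma 3.58.1 in R 4.3.3 (lmFit, eBayes, two-sided, no covariate) with Benjamini-Hochberg adjustment over all 11090 genes. Exact two-sided permutation tests used scipy 1.17.1. The fit was tested on simulated data. The number of mice limits precision: the median standard error was 0.11 over all genes tested and 0.12 over the members.

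The members, partner lists and cell type markers were chosen with earlier results of these data known. Named members were those with an unadjusted p under 0.05, the highest-signal gene of each class, the 2 largest differences each way and the 2 widest WT spreads in each family; all other members were added after their values were seen. Named list genes were those with an unadjusted p under 0.05, up to 4, otherwise the 2 of smallest p. Intervals are limma's 95% intervals. Alternatives were no signal filter or the upper 25%, averaged probe sets, quantile normalization, centred array medians, eBayes with trend and robust, array weights, a pseudocount of 10 on the linear signal, a replicate block and each mouse left out in turn.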

Additional observations from a re-analysis of the deposited data

How the results depend on the processing

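Across 15 alternatives, limma called 0 conjugation enzyme genes each time, and 1 to 7 had an unadjusted p under 0.05. Over all genes 4 were called; 0 were in the upper 25% of signal, 1 with the pseudocount and 1 with the replicate block, and 1 to 51 with a mouse left out. Of the partner genes 1 (Rhbg) was called; 0 were in the upper 25% of signal, with the pseudocount or with the replicate block, and 0 to 1 with a mouse left out.

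The GST median difference of -0.10 ran from -0.152 to -0.063 with a mouse left out, the UGT median of -0.09 from -0.173 to 0.0067 and the SULT median of -0.02 from -0.077 to -0.013. The SULT median was -0.11 in the upper 50% and 0.022 in the upper 25% of signal. The all-gene median of 0.0044 was 0.018 after median centring, 0.027 in the upper 50% and 0.038 in the upper 25% of signal. The filters change which genes are counted; the cause of the other shifts was not tested.

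Of 327 values of the 22 named and tested members under alternatives, 313 kept their direction and their side of the threshold and 14 changed sign. Gsta3 was at 0.012 after median centring. With a mouse left out, Gsta3 ran from -0.029 to 0.024, Sult1a1 from -0.059 to 0.080, Sult2a8 from -0.022 to 0.183, Sult5a1 from -0.178 to 0.235, Ugt2b1 from -0.050 to 0.246, Ugt2b5 from -0.181 to 0.068, Ugt3a1 from -0.012 to 0.164 and Ugt3a2 from -0.091 to 0.033.

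The replicate numbers did not pair the mice: deviations of same-numbered KO and WT mice correlated at 0.0551, -0.187 and 0.147 over the genes tested, and KO mouse 1 correlated best with WT mouse 2 (0.241). Under the block 0 members were called.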
